A study of Homo sapiens with 12 samples.

Results

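Dihydrotestosterone (DHT) was given to C4-2 cells whose paxillin messenger RNA had been lowered with small interfering RNA (siRNA), and the response of every gene with enough counts was measured by RNA sequencing. The 6 libraries described here, 3 with DHT and 3 with vehicle, were those of the 12 in the study that received the siRNA against PXN, the gene of paxillin. The other 6 libraries received a nonspecific siRNA with the same 2 treatments. C4-2 is an established human prostate cancer line, a castration-resistant descendant of LNCaP. All cells were transfected for 48 h and held without serum for 12 h. They then received 2.5 nM DHT or ethanol, the vehicle, for 24 h. Nothing in the labels tells if the 3 replicates of a group came from separate cultures, and p-values therefore measure only the spread among these samples, which may be technical. Of 56269 genes in the count table, 16115 passed the filter on low counts and were tested. Levels are given as CPM, counts relative to the scaled library total, and a fold change is a ratio of DHT to vehicle. CPM is not divided by transcript length, so levels are compared between libraries and not between genes.

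DHT is the most potent natural androgen. It acts through a nuclear receptor that heat shock chaperones hold ready in the cytoplasm and that, once bound by hormone, binds DNA at androgen response elements. In prostate epithelium it drives luminal secretory genes such as the kallikreins, lipid synthesis and the secretory pathway, and it represses other genes. Paxillin is an adaptor protein of focal adhesions, the sites at which integrins couple the extracellular matrix to actin, and it is also known as a relay between kinase signalling and steroid hormone action.

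The libraries followed their labels. PXN stood at 16.7, 12.4 and 12.3 CPM in the 3 vehicle libraries with paxillin siRNA and at 14.2, 11.3 and 9.36 CPM with DHT. The 6 nonspecific libraries stood between 121 and 151 CPM. Paxillin siRNA lowered the message without removing it, and the vehicle and DHT groups overlapped, with a log2 fold change of -0.24 ± 0.13 (SE) and an edgeR quasi-likelihood Benjamini-Hochberg adjusted p of 0.15. With the replicate number as a block that p was 0.043. LPXN, the gene of the paxillin relative leupaxin, did not pass the test (-0.30 ± 0.18, adjusted p = 0.2), and TGFB1I1, the gene of the relative Hic-5, was too low to be tested. Totals ran from 25701219 to 29037657 counts with vehicle and from 26251814 to 32040465 with DHT, so that 1 count was worth 0.0328 to 0.0394 CPM. The first principal component of the 6 libraries held 85.4% of the variance over 10701 genes and separated DHT from vehicle. Prostate luminal markers summed to 7580 to 8800 CPM with vehicle and to 15300 to 16400 CPM with DHT, and 7 of 11 rose and 4 fell. Basal markers summed to 46.5 to 61 CPM and then to 29 to 36.9 CPM, 4 of 6 tested fell, and the defining basal keratin KRT5 had 0 counts. Immune markers summed to at most 0.59 CPM in any library, with CD3D, CD3E and MS4A1 among its 4 markers at 0 counts.

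DHT changed 6120 of the 16115 genes (38.0%), 3234 upward (20.1%) and 2886 downward (17.9%). Counts of called members in the gene lists below are to be read beside these shares. The rises included the larger changes. At least 2-fold rises numbered 575 (3.57%) and falls 819 (5.08%), but at least 8-fold rises numbered 119 and falls 31, and at least 32-fold rises 38 and falls 3. The median called rise was 1.32-fold and the median called fall 1.53-fold. The values of the vehicle and DHT libraries did not overlap in 7828 genes (48.6%), which included 3124 of the genes that rose and 2731 of those that fell. A lack of overlap given below for a called gene therefore adds little to its call. Upper-quartile scaling moved the median log2 fold change of all genes by -0.086 and the split to 2262 rises and 3935 falls, so that 36.5% of called genes rose and not 52.8%. Small changes are therefore given below relative to the trimmed mean of M values (TMM) scaling. The direction of called genes also went with their level. Among genes of at least 100 CPM 37.8% rose and 12.5% fell, and among genes under 1 CPM 6.25% rose and 14.1% fell. Genes that rose at least 2-fold took 2.26 to 2.4% of all counts with vehicle and 6.53 to 6.8% with DHT. Genes that fell at least 2-fold took 1.7 to 1.88% and then 0.509 to 0.652%. These are bulk samples, in which fewer cells that express a gene and less RNA per cell cannot be told apart.

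**Figure D1:**
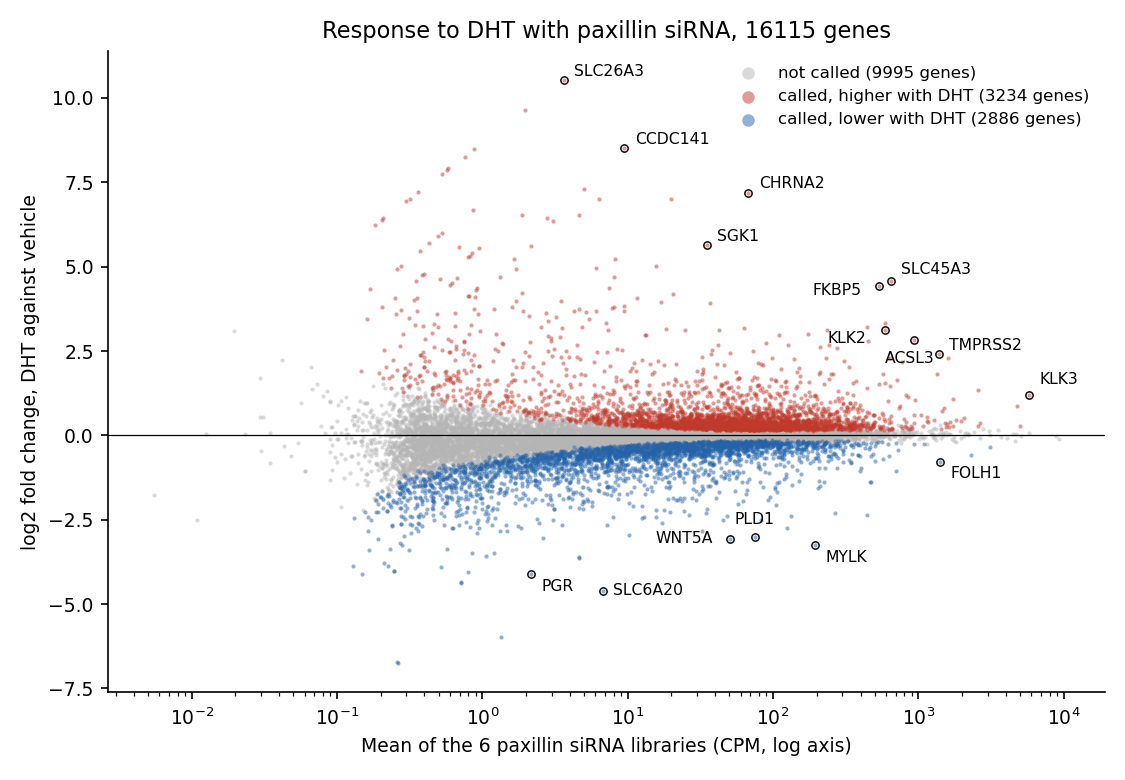
Log2 fold change of DHT against vehicle with paxillin siRNA (vertical axis) against the mean CPM of the 6 libraries (log axis) for 16115 genes, each point a gene. The largest rises lie among genes of low mean level, while KLK3 and TMPRSS2 combine high levels with rises, and the fitted value of SLC26A3 depends on the prior count because it had 0 counts in vehicle.

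Chaperones and coregulators of hormone action moved by small amounts. Of 37 genes on that list, 16 rose and 5 fell (3 without DHT replicate 1 or vehicle replicate 3), with a median log2 fold change of 0.13 beside -0.01 over all genes. Most of these rises were small: with upper-quartile scaling 7 rose, and 7 to 9 rose when any of 4 libraries was left out (replicate 2 or 3 with vehicle, replicate 1 or 2 with DHT). FKBP5, a co-chaperone of steroid receptors, was the only member that rose at least 2-fold. PIAS1, a SUMO ligase, rose from 38.3, 33.8 and 32.8 CPM to 59.4, 51 and 56.2 CPM, 1.59-fold. The coactivators NCOA1 and NCOA2 fell, at -0.33 ± 0.06 and -0.21 ± 0.06 (NCOA2 not without DHT replicate 1 or vehicle replicate 3), and the chaperone gene HSPA8 stood at 3130 ± 210 CPM with vehicle and 3120 ± 309 CPM with DHT (SD, n = 3 per group).

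The genes best known as androgen-induced rose almost without exception. Of 46 tested, 43 rose and 0 fell, 38 of them at least 2-fold, with a median log2 fold change of 1.81. The exceptions were STEAP1, STEAP2 and TSC22D3. STEAP1 and STEAP2 encode metalloreductase family proteins and stood at 221 ± 11.2 and 756 ± 80.2 CPM with vehicle and at 230 ± 23.3 and 744 ± 32.7 CPM with DHT. TSC22D3, a leucine zipper gene that glucocorticoids also induce, stood at 203, 158 and 110 CPM and then at 247, 218 and 160 CPM. Each replicate of it was higher with DHT, but the groups overlapped (adjusted p = 0.086, and 1.5e-05 with the replicate block).

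KLK3 (chromosome 19, 50854915 to 50860764), the gene of prostate-specific antigen, stood at 4020, 3400 and 3110 CPM with vehicle and at 8170, 8250 and 7940 CPM with DHT. Its vehicle libraries spread more widely than its DHT libraries, and the groups were far apart, with a 2.31-fold rise (log2 1.21 ± 0.11, adjusted p = 6.4e-08). KLK2, its neighbour kallikrein, rose further, from 160, 117 and 91.9 CPM to 1160, 1030 and 999 CPM, 8.64-fold. TMPRSS2, a serine protease gene that is often fused to ETS genes in prostate cancer, went from 515, 421 and 387 CPM to 2440, 2250 and 2310 CPM. FKBP5 (chromosome 6, 35573590 to 35728583) held 46.3, 47.2 and 49.7 CPM with vehicle and 1150, 1000 and 914 CPM with DHT, a 21.4-fold rise with an adjusted p of 2.4e-15. SLC45A3, a prostate transporter gene also known as prostein, had the tightest vehicle values, 51.1, 52.8 and 51.4 CPM, and reached 1390, 1200 and 1140 CPM, 24-fold higher. In none of these 5 genes did the groups overlap. The kallikrein list as a whole had 6 rises and 0 falls among 8 tested, with KLK4 up 1.93-fold and KLK15 up 1.49-fold.

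**Figure D2:**
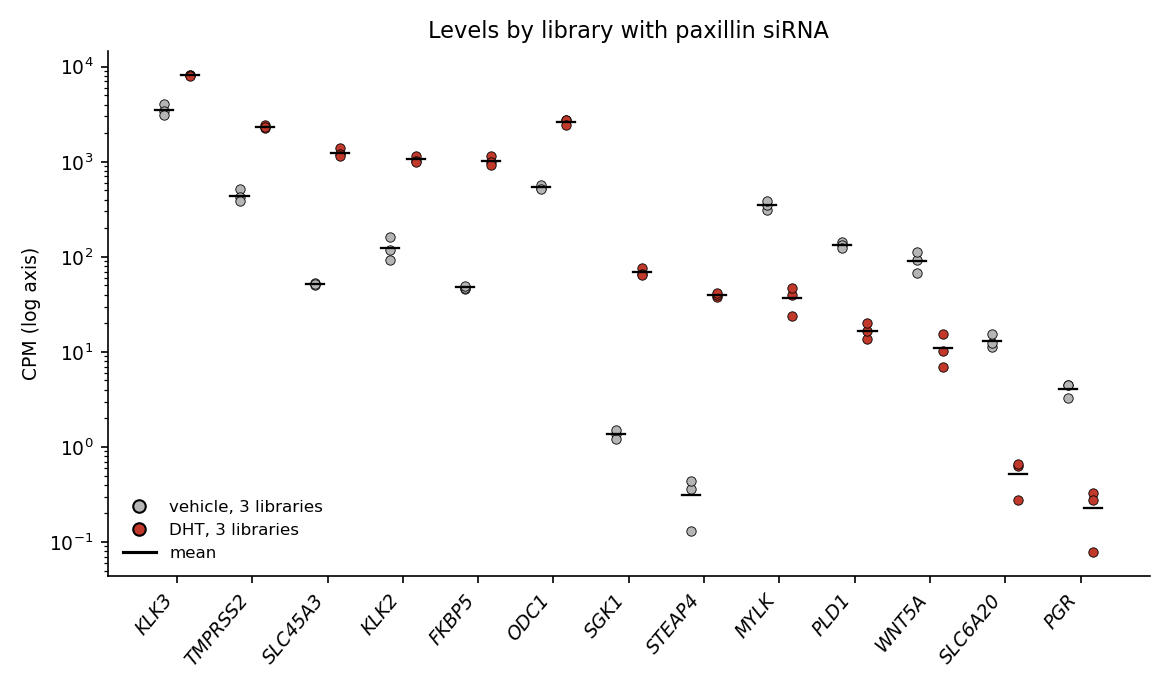
CPM (log axis) of 13 genes in the 3 vehicle and 3 DHT libraries with paxillin siRNA, each point a library and each bar a group mean. In every gene shown the groups are apart, with KLK3 to STEAP4 higher and MYLK to PGR lower with DHT.

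The promoters of such genes were read for the AGAACA hexamer, the core of an androgen response element half-site, on both strands. Promoters were 300-base RefSeq windows of GRCh38.p14, from 250 bases before each annotated start to 50 after, and 10461 of the 16115 tested genes had one. The hexamer was present in 8.87% of all of these promoters, in 11.3% of 345 promoters of genes that rose at least 2-fold and in 18.8% of 133 of genes that rose at least 4-fold. It was present in 12.4% of 467 promoters of genes that fell at least 2-fold and in 14.0% of 93 of genes that fell at least 4-fold. Promoters on both sides of the response thus held it more often than the promoters of all tested genes, which was not tested and describes letters and not binding. Among 34 matched androgen-induced genes 3 held it, FKBP5, KLK3 and PMEPA1. That share of 8.82% was near the 8.87% of all promoters. The exact palindrome, AGAACA and its reverse complement 3 bases apart, was in none of the promoters. Elements whose second half-site departs from these letters were not searched for. Shown here are the 250 bases before the start of 3 genes that rose and 1 that fell, with the hexamer or its reverse complement in capitals. They are KLK3 (chr19:50854665-50854914, plus strand, capitals from base -170), whose proximal promoter is known to hold an androgen response element, KLF5 (chr13:73054726-73054975, plus strand, from base -27), SLC15A2 (chr3:121894151-121894400, plus strand, from base -247) and PLD1 (chr3:171810484-171810733, minus strand, from base -196).
KLK3: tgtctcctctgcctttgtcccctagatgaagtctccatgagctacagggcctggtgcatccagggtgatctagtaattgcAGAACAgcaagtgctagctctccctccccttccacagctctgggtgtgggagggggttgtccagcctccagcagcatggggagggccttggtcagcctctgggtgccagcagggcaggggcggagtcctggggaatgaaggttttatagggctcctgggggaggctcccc
KLF5: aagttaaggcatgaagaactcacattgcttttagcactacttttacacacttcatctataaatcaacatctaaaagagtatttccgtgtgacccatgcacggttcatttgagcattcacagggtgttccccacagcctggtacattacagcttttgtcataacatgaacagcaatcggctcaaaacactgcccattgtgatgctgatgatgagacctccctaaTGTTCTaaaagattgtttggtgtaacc
SLC15A2: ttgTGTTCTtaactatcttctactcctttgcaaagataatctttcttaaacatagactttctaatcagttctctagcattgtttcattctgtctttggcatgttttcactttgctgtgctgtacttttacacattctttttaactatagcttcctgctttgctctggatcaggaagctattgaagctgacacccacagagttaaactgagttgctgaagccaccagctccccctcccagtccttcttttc
PLD1: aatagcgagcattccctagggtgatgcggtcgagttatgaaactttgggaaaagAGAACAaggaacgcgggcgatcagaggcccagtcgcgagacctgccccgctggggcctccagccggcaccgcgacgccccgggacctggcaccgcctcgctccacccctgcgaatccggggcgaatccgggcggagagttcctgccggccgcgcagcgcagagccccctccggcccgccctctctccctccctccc

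Genes that were nearly silent with vehicle gave the largest folds. SLC26A3, an intestinal anion exchanger, had 0 counts in the 3 vehicle libraries and 6.72, 7.24 and 7.92 CPM with DHT, at least 207-fold higher against a floor of 3 counts over the vehicle group. CCDC141, a coiled-coil gene, went from 4 to 1556 counts over the groups, a ratio of 407 with an exact 95% interval of 159 to 1500 that covers counting error only. CHRNA2, a nicotinic acetylcholine receptor subunit, held 1.02, 0.729 and 0.978 CPM with vehicle and 124, 129 and 150 CPM with DHT. It was the most precisely measured of these large rises, at 7.20 ± 0.13. STEAP4, a metalloreductase, rose from 26 to 3213 counts (ratio 129, 88.1 to 198), and the muscle protein gene TTN from 8 to 1020 (133, 67.4 to 310). SNAI2, a repressor known from epithelial to mesenchymal transition, rose from 6 to 503 counts (87.7, 40 to 240), while VIM, a mesenchymal filament gene, did not pass the test (0.17 ± 0.14). SGK1, a serum and glucocorticoid regulated kinase, rose from 1.38, 1.2 and 1.52 CPM to 75.6, 66.3 and 64.2 CPM. DOCK8, ADAM7 and the transcription factor gene RUNX1 rose to 9.1 ± 0.51, 5.54 ± 0.914 and 11.8 ± 0.445 CPM from levels under 0.6 CPM in every library. SLC2A3, a glucose transporter with close paralogs, rose from 5 to 816 counts (ratio 171, 72.9 to 527), and its counts are uncertain for that reason. ORM1, an acute phase protein with the near copy ORM2, rose from 3 to 306 counts (107, 36.2 to 520) and carries the same doubt.

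Transcription factors of the prostate epithelium moved in both directions. Of 28, 14 rose and 5 fell (8 with upper-quartile scaling). KLF5, a zinc finger factor of epithelial cells, rose from 2.27, 2.08 and 1.27 CPM to 13.3, 9.8 and 7.92 CPM, and KLF4 rose 3.04-fold. SPDEF, an ETS factor of secretory cells, rose from 107, 115 and 111 CPM to 404, 370 and 397 CPM. GRHL2, which maintains epithelial junction genes, rose 2.14-fold. The pioneer factor FOXA1 rose 1.25-fold to 368 ± 12.5 CPM, and HOXB13 and GATA2, a homeobox and a zinc finger factor of prostate epithelium, fell 1.26-fold and 1.23-fold. The groups of these 3 did not overlap.

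Of 31 nuclear receptor genes 5 rose and 11 fell, beside 20.1% and 17.9% of all genes. The falls numbered 7 without paxillin DHT replicate 2 or paxillin vehicle replicate 2. PGR, the progesterone receptor, fell from 3.29, 4.45 and 4.53 CPM to 0.328, 0.275 and 0.0777 CPM, or from 347 to 19 counts, a ratio of 17.5 (11 to 29.4). NR4A1, an orphan receptor and immediate early gene, rose from 26.8, 26.7 and 26.5 CPM to 70.1, 69.5 and 72.8 CPM, whereas its relative NR4A2 fell 3.32-fold. RARB, a retinoic acid receptor, rose 3.44-fold.

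Genes that make or remove androgens split likewise, with 6 of 15 up and 4 down. UGT2B15 and UGT2B17, which glucuronidate DHT and its metabolites, fell 6.34-fold and 3.72-fold. The replicates of UGT2B15 were spread, at 3.35, 5.03 and 9.93 CPM with vehicle and 0.36, 1.06 and 1.51 CPM with DHT, but did not overlap. UGT2B28 rose from 15 to 92 counts (ratio 6.42, 3.69 to 11.9). The UGT2B genes are close paralogs, so counts may be shared among them. HSD17B4, a peroxisomal oxidoreductase gene, rose from 226 ± 4.57 to 324 ± 3.75 CPM, and SRD5A1, a steroid 5-alpha reductase, rose 1.24-fold while its relative SRD5A3 fell 1.75-fold. CYP11A1, the side-chain cleavage enzyme that begins steroid synthesis, rose from 3 to 140 counts (48.8, 16.4 to 240).

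Most cholesterol synthesis genes rose. Of 27 genes 20 rose and 4 fell (1 without DHT replicate 1), with a median log2 fold change of 0.64. HMGCS1, which makes the first committed intermediate, went from 160, 210 and 269 CPM to 377, 505 and 596 CPM. Within both groups its values were lowest in replicate 1 and highest in replicate 3, and the groups did not overlap. Of the regulators, SCAP, the escort of sterol regulatory element binding proteins, rose 1.34-fold and INSIG1, a sterol-induced brake on that escort, rose 1.84-fold. SREBF1 stood at 1230 ± 33.2 and then 1250 ± 72.3 CPM (adjusted p = 0.83).

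Fatty acid genes did not move as one. Of 30 genes of synthesis and activation 15 rose and 9 fell (11 and 9 with upper-quartile scaling), beside 20.1% and 17.9% of all genes. With 1 library left out at a time, 11 to 15 rose and 7 to 9 fell. FASN, fatty acid synthase, rose from 2960, 3370 and 3830 CPM to 6130, 6040 and 6220 CPM. ACSL3, an acyl-CoA synthetase, rose from 205, 218 and 271 CPM to 1670, 1550 and 1710 CPM, 7.08-fold, and the elongases ELOVL5 and ELOVL7 rose 4.51-fold and 3.97-fold. The desaturase SCD did not pass the test (0.15 ± 0.07, adjusted p = 0.12, and 0.049 with the replicate block). Of 27 genes of oxidation and lipid droplets 8 rose and 7 fell (4 and 10 with upper-quartile scaling). The rises numbered 5 without vehicle replicate 1 or 3, and the falls 3 without DHT replicate 1 and 4 without vehicle replicate 3.

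Polyamine genes showed 9 rises and 0 falls among 16 (7 rises and 1 fall with upper-quartile scaling). ODC1, the enzyme of the first step, rose from 524, 571 and 513 CPM to 2740, 2750 and 2450 CPM. SMS, which makes spermine, rose from 118, 107 and 112 CPM to 838, 792 and 717 CPM. SAT1, which acetylates polyamines for export, rose 4.93-fold, so both a synthetic and a catabolic enzyme were higher. AMD1, which supplies the aminopropyl donor, rose 1.16-fold to 498 ± 14 CPM, a call lost with upper-quartile scaling (adjusted p = 0.13) and without vehicle replicate 2 or 3.

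The secretory pathway rose by small amounts in many genes. Of 38 endoplasmic reticulum folding genes 29 rose and 2 fell (median log2 fold change 0.46), and of 49 genes of transport from the endoplasmic reticulum to the Golgi 40 rose and 2 fell, with a median of 0.38. DNAJB9, a co-chaperone, rose from 15.8, 11.6 and 14.6 CPM to 40.7, 30.7 and 43.9 CPM. CREB3L4, a membrane-bound transcription factor of prostate secretory cells, rose 1.92-fold. HSPA5, the main chaperone of the compartment, was higher with DHT in every replicate but its groups overlapped, from 1440, 1040 and 1290 to 1690, 1340 and 1610 CPM (adjusted p = 0.051, and 0.003 with the replicate block). XBP1, a transcription factor of the unfolded protein response, did not pass (adjusted p = 0.45), and DDIT3, its stress-induced death factor, fell 1.43-fold. Among coat proteins, SEC24D rose from 44.4, 46.3 and 47.1 CPM to 123, 101 and 123 CPM and SEC23B rose 1.49-fold. RAB3B, a secretory vesicle GTPase, rose 3.68-fold and SYTL2, a vesicle docking protein, fell, at -2.52.

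Sugar nucleotide and glycan genes numbered 35, of which 19 rose and 4 fell (7 with upper-quartile scaling). The sugar nucleotide steps GFPT1, PGM3 and UAP1 rose 1.51-fold, 2.33-fold and 2.16-fold. UAP1 reached 408, 405 and 405 CPM from 220, 186 and 157 CPM, so that its DHT libraries were far closer together than its vehicle libraries. ST6GALNAC1, a sialyltransferase of mucin-type glycans, rose 6.62-fold to 155 ± 13.7 CPM. ST3GAL1, which sialylates the same glycans at another position, fell from 970, 890 and 967 CPM to 430, 446 and 493 CPM, and FUT8, the core fucosyltransferase, fell 2.18-fold.

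In energy metabolism, the calls lay mostly in glycolysis. Over all tested genes 20.1% rose and 17.9% fell, and among those of at least 100 CPM 37.8% rose and 12.5% fell. Of 38 glycolysis and hypoxia genes 22 rose and 4 fell (2 without vehicle replicate 1 or 2 or DHT replicate 3). The glucose transporter SLC2A1 rose 1.64-fold, hexokinase HK2 from 93.7, 106 and 102 CPM to 188, 184 and 180 CPM, and LDHA, lactate dehydrogenase, 1.38-fold. CA9, a hypoxia-induced carbonic anhydrase, fell 3.42-fold, and VEGFA, a hypoxia-induced growth factor, did not pass the test (adjusted p = 0.062, and 0.0013 with the replicate block). Of 34 genes of the tricarboxylic acid cycle and citrate 9 rose and 5 fell, led by MPC2, a subunit of the mitochondrial pyruvate carrier, from 194, 181 and 172 CPM to 570, 556 and 562 CPM. Of 33 nuclear respiratory chain genes 1 rose and 4 fell, and none of 13 mitochondrially encoded genes passed. Upper-quartile scaling raised the falls of the cycle to 10, those of the nuclear respiratory chain to 8 and those of the mitochondrially encoded genes to 1. Falls of the cycle numbered 3 without DHT replicate 1, and those of the nuclear respiratory chain 2 without DHT replicate 1 or vehicle replicate 2. Of the mitochondrially encoded genes 3 fell without DHT replicate 3, and 1 fell without vehicle replicate 1 or with the replicate block. Of 75 cytosolic ribosomal protein genes 1 rose and 0 fell. Rises numbered 28 among 53 ribosome biogenesis genes and 16 among 36 proteasome genes, all by less than 2-fold, and upper-quartile scaling left 15 and 6. Without paxillin DHT replicate 1 or paxillin vehicle replicate 2 the first count was 18, and without paxillin vehicle replicate 1 the second was 10.

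Genes of amino acid supply and the integrated stress response fell in 14 of 37 and rose in 5 (8 with the replicate block). ASNS, asparagine synthetase, fell from 208, 193 and 148 CPM to 123, 123 and 106 CPM. CHAC1, PSAT1 and SLC7A11, which act in glutathione, serine and cystine metabolism, fell 2.1-fold, 1.7-fold and 1.62-fold. The message of ATF4, the factor that induces these genes, did not pass the test (-0.16 ± 0.08, adjusted p = 0.1), though it did with the replicate block (adjusted p = 0.034). SLC43A1, an amino acid transporter of prostate, was among those that rose, from 120, 106 and 115 CPM to 419, 384 and 405 CPM.

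Of 22 genes known as androgen-repressed 14 fell and 3 rose, with a median log2 fold change of -1.15. WNT5A, a noncanonical Wnt ligand, fell from 67.7, 92.6 and 111 CPM to 6.91, 10.3 and 15.4 CPM, and PLD1, phospholipase D1 (chromosome 3, 171600404 to 171810483), from 144, 134 and 125 CPM to 13.6, 16.5 and 20.2 CPM. ACKR3, a chemokine scavenger receptor, fell from 270, 208 and 176 CPM to 33.1, 31.3 and 33.4 CPM, while the gene of its ligand, CXCL12, rose 3.19-fold. MET, the hepatocyte growth factor receptor, fell from 142 to 20 counts (ratio 6.79, 4.23 to 11.4). DDC, which decarboxylates aromatic amino acids, fell 2.61-fold. The 3 members that rose were TMEFF2, a transmembrane protein gene, BMPR1B, a bone morphogenetic protein receptor, and HES6, a partner of HES1, at 2.16 ± 0.18, 2.09 ± 0.15 and 0.98 ± 0.15. Each of those 3 had groups that did not overlap.

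Other large falls lay outside that list. SLC6A20, a proline transporter, went from 11.3, 12.3 and 15.4 CPM to 0.623, 0.275 and 0.66 CPM, 24.5-fold lower, and AMIGO2, an adhesion protein gene, fell 12.5-fold from 8.55 ± 0.321 CPM. MYLK, myosin light chain kinase, fell from 310, 355 and 386 CPM to 23.9, 40.1 and 46.7 CPM, and its counts are uncertain because a pseudogene copies part of it. CYB561A3, a cytochrome b561 family gene, fell from 653, 740 and 840 CPM to 120, 146 and 173 CPM. GOLIM4, a Golgi membrane protein gene, fell from 339, 431 and 561 CPM to 67, 90.4 and 112 CPM. In CYB561A3 and GOLIM4, as in MYLK and WNT5A, replicate 3 was the highest and replicate 1 the lowest under both treatments. The secreted or membrane products ACPP, prostatic acid phosphatase, and FOLH1, prostate-specific membrane antigen, fell 2.23-fold and 1.71-fold although both are luminal markers.

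Most DNA replication and mitosis genes fell, each by less than 2-fold. Of 47 DNA replication genes 32 fell and 2 rose (median log2 fold change -0.32), and of 41 mitosis genes 29 fell and 0 rose, with a median of -0.34. Leaving out 1 library at a time kept 27 to 34 and 22 to 33 falls. MCM2, a subunit of the replicative helicase, stood at 129, 143 and 155 CPM with vehicle and at 97.1, 96.6 and 96.9 CPM with DHT. The spread of its vehicle libraries was far wider than that of its DHT libraries, and the groups did not overlap (-0.55 ± 0.07, adjusted p = 5.9e-06). TK1, thymidine kinase, fell from 104, 115 and 113 CPM to 66, 72.8 and 68.9 CPM. CDC45, which activates the helicase, fell 1.53-fold, E2F1, the transcription factor of these genes, 1.33-fold, and CCNE2, a cyclin of entry into S phase, 1.59-fold. GMNN, geminin, the inhibitor of replication licensing, rose from 26.5, 24.6 and 26.7 CPM to 35.8, 36.8 and 36.7 CPM. In mitosis, PLK1, a kinase of spindle assembly, fell from 54.4, 66.3 and 56.6 to 36.9, 45.5 and 44.6 CPM, TOP2A, a topoisomerase, fell 1.44-fold and CDC20, an activator of the anaphase-promoting complex, 1.38-fold. CDK1 stood at 85.5 ± 2.16 CPM with vehicle and 84.6 ± 2.8 CPM with DHT. Of 34 DNA repair genes 14 fell and 5 rose (1 with upper-quartile scaling or without paxillin vehicle replicate 2), among the falls BRCA1 and BRCA2 at -0.51 ± 0.08 and -0.52 ± 0.10.

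The G1 regulators did not share this pattern, with 7 of 28 up and 5 down, shares near the 20.1% and 17.9% over all genes. CCND1, cyclin D1, rose from 378, 371 and 349 CPM to 498, 457 and 448 CPM, CDK6 rose 2.88-fold, and the inhibitor CDKN2C fell 1.63-fold. CDKN1A, the p21 inhibitor, did not pass the test (0.03 ± 0.09, adjusted p = 0.81).

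The promoters of the replication genes were read for the E2F letters TTTCGCGC, TTTGGCGC and TTTCCCGC on both strands. At least 1 of these occurred in 4.54% of all matched promoters, in 8.82% of 34 of mitosis genes and in 20 of 40 of replication genes. The 20 replication genes with such a match had a median log2 fold change of -0.32 with 13 falls, and the 20 without had -0.36 with 13 falls. The 250 bases before the start are shown for 3 genes that fell, UHRF1 (chr19:4909251-4909500, plus strand, capitals from base -14), MCM3 (chr6:52284743-52284992, minus strand, from base -174) and POLA2 (chr11:65261712-65261961, plus strand, from base -53), with the match or its reverse complement in capitals. UHRF1 maintains DNA methylation at replication forks, MCM3 is a helicase subunit and POLA2 a subunit of the primase complex, and they fell 1.4-fold, 1.39-fold and 1.38-fold.
UHRF1: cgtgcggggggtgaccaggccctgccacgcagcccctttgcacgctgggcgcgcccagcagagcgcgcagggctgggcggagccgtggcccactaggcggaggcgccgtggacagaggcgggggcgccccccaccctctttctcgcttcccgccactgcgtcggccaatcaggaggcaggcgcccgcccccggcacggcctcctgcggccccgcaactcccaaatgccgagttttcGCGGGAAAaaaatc
MCM3: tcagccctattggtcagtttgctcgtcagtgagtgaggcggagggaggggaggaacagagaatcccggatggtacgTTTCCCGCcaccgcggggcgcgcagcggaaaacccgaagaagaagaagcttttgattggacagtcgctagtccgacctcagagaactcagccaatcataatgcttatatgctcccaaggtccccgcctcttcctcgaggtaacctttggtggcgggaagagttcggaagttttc
POLA2: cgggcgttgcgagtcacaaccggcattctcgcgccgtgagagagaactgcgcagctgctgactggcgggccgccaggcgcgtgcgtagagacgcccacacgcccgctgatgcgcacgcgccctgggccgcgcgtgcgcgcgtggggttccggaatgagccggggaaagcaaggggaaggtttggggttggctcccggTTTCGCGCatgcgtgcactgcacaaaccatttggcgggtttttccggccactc

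**Figure D3:**
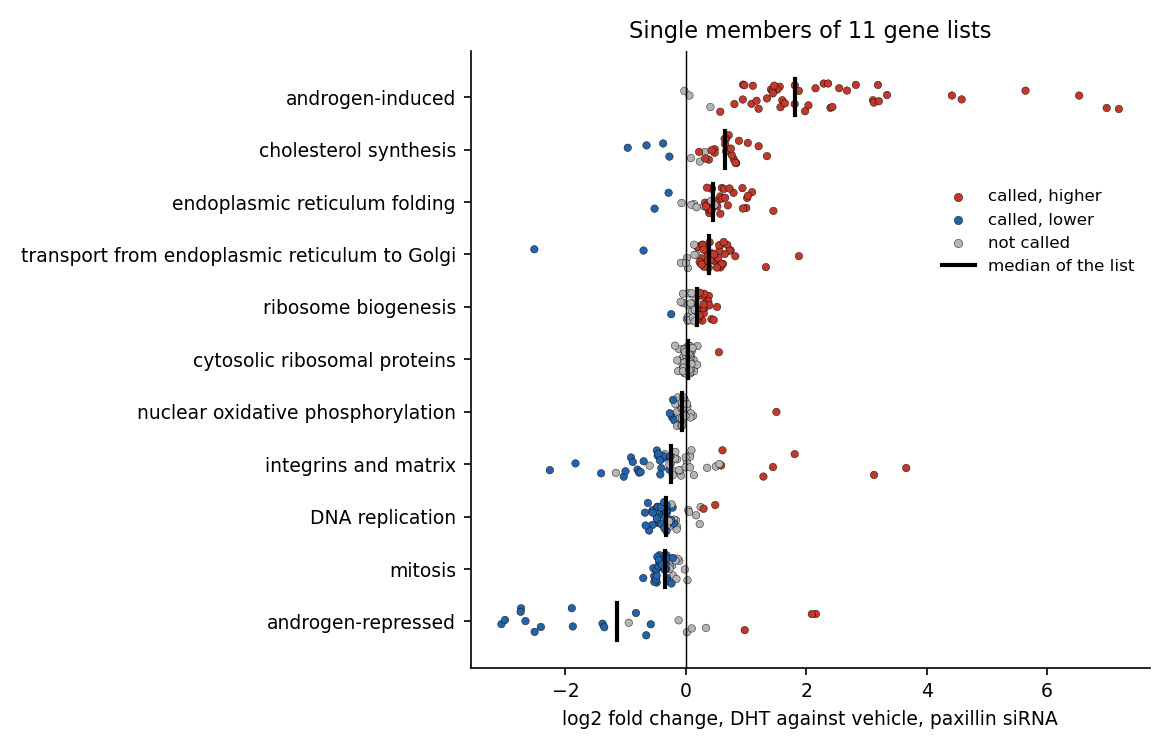
Log2 fold change of DHT against vehicle with paxillin siRNA for every tested member of 11 gene lists, each point a gene and each bar the median of its list. Androgen-induced genes lie far to the right with a median of 1.81. Most DNA replication and mitosis genes lie left of 0, with medians of -0.32 and -0.34, and GMNN and RFC3 of the replication list were called higher.

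Genes of cell survival were called in both directions, beside 20.1% higher and 17.9% lower over all genes. Of 31 p53 targets 9 rose and 9 fell (7 and 11 with upper-quartile scaling). Of 26 genes of the BCL2 family and apoptosis 5 rose and 6 fell (3 without paxillin vehicle replicate 2). Those of the BCL2 list were shares near those of all genes. GDF15, a stress-induced cytokine, rose from 622, 598 and 586 CPM to 2430, 1990 and 1900 CPM. TNFRSF10B, a death receptor, rose 1.74-fold. The antiapoptotic genes moved in opposite directions: MCL1 fell from 306, 304 and 288 CPM to 176, 180 and 175 CPM, and BCL2L1 rose from 132, 137 and 135 CPM to 204, 202 and 208 CPM. Both had groups far apart relative to their spread.

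Growth factor receptors changed in composition. Of 29 receptor tyrosine kinases and ligands 7 rose and 13 fell, beside 20.1% and 17.9% of all genes. IGF1R, the insulin-like growth factor receptor, rose from 53.4, 46.2 and 45.1 CPM to 244, 229 and 214 CPM, and its adaptor IRS2 rose 2.14-fold. EGFR rose 1.63-fold, while ERBB2, which pairs with it, fell from 451, 432 and 499 CPM to 284, 295 and 336 CPM. Of 32 genes of phosphoinositide, AKT and mTOR signalling 17 rose and 5 fell (11 and 8 with upper-quartile scaling). INPP4B, a phosphatase that opposes AKT, rose from 2.73, 2.63 and 2.79 CPM to 16.2, 16.4 and 14.5 CPM, and PIK3R3, a regulatory subunit of the kinase, fell 1.65-fold.

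Genes downstream of kinases and cytokines were called in both directions, to be read beside 20.1% higher and 17.9% lower over all genes. Of 20 ERK feedback and ERK-induced genes 7 rose and 2 fell, and 4 rose with upper-quartile scaling or without paxillin vehicle replicate 2. DUSP4, an ERK phosphatase, rose from 12.9, 9.01 and 10 CPM to 58.7, 48.6 and 54.1 CPM, and its relative DUSP6 stood below 0.5 CPM in all 6 libraries. Of 21 immediate early genes 11 rose and 4 fell. FOS and EGR1 stood at 0.586 ± 0.235 and 0.893 ± 0.251 CPM with DHT and did not pass the test (adjusted p = 0.65 and 0.45), and JUN fell 1.24-fold. MYC stood at 231, 202 and 191 CPM with vehicle and at 310, 241 and 194 CPM with DHT. Its groups overlapped (0.26 ± 0.16, adjusted p = 0.22, and 0.0047 with the replicate block). NFKBIA, the inhibitor of NF-kappaB, rose from 30.2, 31.6 and 30.4 CPM to 76.8, 71.4 and 79.2 CPM, and of 24 genes of that pathway 11 rose and 4 fell. Of 38 interferon response genes 5 rose and 8 fell beside 20.1% and 17.9% of all genes (3 falls without paxillin DHT replicate 2 or paxillin vehicle replicate 3), and ISG15 did not pass (-0.08 ± 0.08), while B2M, the light chain of class I histocompatibility molecules, rose 2.09-fold. Of 35 Wnt genes 6 rose and 8 fell, with 15 falls under upper-quartile scaling and 13 with the replicate block. Of 26 Notch genes 10 rose and 6 fell (3 without vehicle replicate 3 or without DHT replicate 1 or 2), with the target HES1 up from 10.6 ± 0.906 to 22.2 ± 2.17 CPM. Of 38 TGF-beta, BMP and activin genes 14 rose (9 with upper-quartile scaling or without paxillin vehicle replicate 1) and 12 fell. PMEPA1, which restrains TGF-beta signalling and is itself androgen-induced, rose from 92.3, 84.7 and 82.2 CPM to 897, 753 and 743 CPM, and SMAD7, another inhibitor, fell 1.8-fold.

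Because paxillin acts at focal adhesions, the genes of that structure were described by layer. Integrins and matrix proteins fell in 22 of 53 and rose in 7, beside 17.9% and 20.1% of all genes. Their median log2 fold change was -0.25. ITGA2, a collagen receptor subunit, fell from 35.5, 40 and 48 CPM to 18, 19 and 23.4 CPM, ITGB4, the laminin receptor subunit of hemidesmosomes, fell 1.88-fold, and FN1, fibronectin, 1.71-fold. ITGB1, the most shared beta subunit, stood at 393 ± 37.2 CPM with vehicle and 397 ± 16.9 CPM with DHT. THBS1, the matrix glycoprotein thrombospondin, was among the 7 that rose, from 36.2, 47.7 and 60 CPM to 410, 419 and 428 CPM, and LAMA1, a laminin chain, rose 12.7-fold. The syndecans SDC4 and SDC2, which act as matrix coreceptors, fell 3.56-fold and 4.79-fold. Both varied by replicate, with SDC4 at 130, 144 and 171 and then 28.1, 40.1 and 56.9 CPM, and without overlap.

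Adaptors and kinases of focal adhesions rose in 19 of 59 and fell in 10, beside 20.1% and 17.9% of all genes. Upper-quartile scaling gave 14 rises and 15 falls. The median of 0.02 in this list lay beside the -0.01 of all genes. VCL, vinculin, rose from 271, 241 and 283 CPM to 376, 334 and 345 CPM, and LIMS1, which links integrins to actin, rose 1.6-fold. NEDD9, a scaffold of the CAS family, fell 1.86-fold. PTK2, focal adhesion kinase, TLN1, talin, and ZYX, zyxin, did not pass the test, at 0.12 ± 0.07, 0.04 ± 0.06 and 0.11 ± 0.08. Of 52 actin and myosin genes 19 rose and 12 fell (14 and 15 with upper-quartile scaling). RHOU, an atypical small GTPase, rose from 40, 38.4 and 38 CPM to 336, 306 and 285 CPM, TPM1, a tropomyosin, 1.84-fold, and MYH10, a nonmuscle myosin heavy chain, fell 1.52-fold. VAV3, a guanine nucleotide exchange factor, fell from 4.54, 8.28 and 12.9 CPM to 0.623, 0.748 and 0.738 CPM.

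Keratin genes numbered 8, of which 5 rose and 1 fell. KRT8 and KRT18, the luminal keratin pair, went from 619 ± 29.4 and 533 ± 23.7 CPM to 1290 ± 66.9 and 942 ± 69.3 CPM. CDH1, E-cadherin, did not pass the test (-0.08 ± 0.08), and of 39 junction genes 12 rose and 10 fell (10 and 13 with upper-quartile scaling), with CLDN3, a claudin, up 1.63-fold. YAP and TEAD targets and components fell in 12 of 22 and rose in 4. Their member WWTR1, the YAP relative TAZ, rose from 0.789, 0.948 and 0.869 CPM to 10.9, 13 and 10.1 CPM. Of 49 axon guidance genes 19 fell and 7 rose (4 without vehicle replicate 2), among them NRP1, a semaphorin and growth factor coreceptor, from 331, 288 and 321 CPM to 96.7, 107 and 126 CPM, and SEMA3C, a secreted semaphorin, up 2.28-fold.

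**Figure D4:**
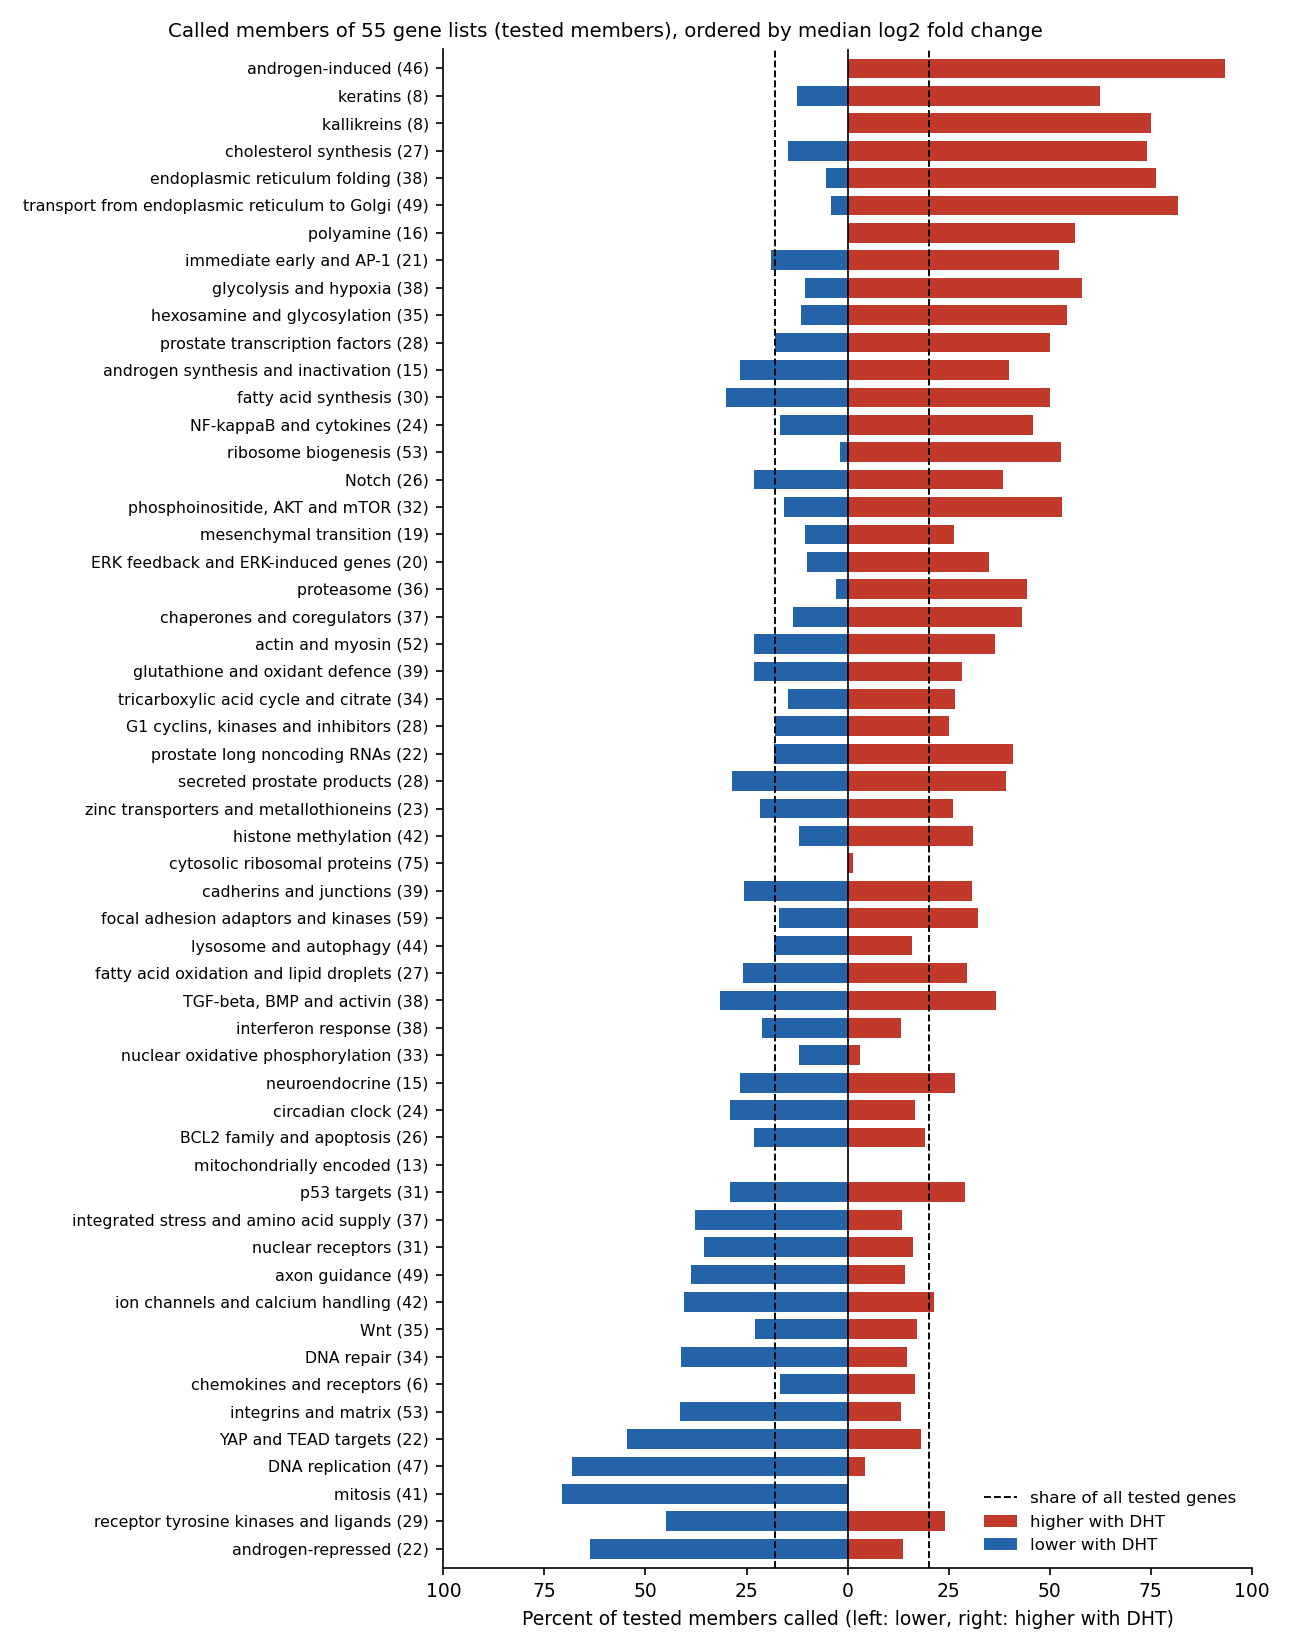
Percent of the tested members of 55 gene lists called higher (right) or lower (left) with DHT under paxillin siRNA, ordered by the list's median log2 fold change, with the number of tested members in brackets. The dashed lines are the shares of all tested genes, 20.1% higher and 17.9% lower, and androgen-induced genes stand at the top and androgen-repressed genes at the bottom.

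Some further groups are given by their leading genes, and their counts are to be read beside the 20.1% and 17.9% of all genes that rose and fell. Of 42 ion channel and calcium handling genes 9 rose and 17 fell. TRPM8, the cold-sensing channel of prostate, rose from 138, 130 and 124 CPM to 533, 542 and 533 CPM, and the sodium pump subunit ATP1B1 fell 3.19-fold. Of 23 zinc genes 6 rose and 5 fell, shares near those of all genes. The importer SLC39A10 rose 2.85-fold, and the metallothionein gene MT2A, whose family has near-identical members, fell from 11, 14 and 23.7 CPM to 2.85, 3.86 and 5.55 CPM. Of 24 circadian clock genes 4 rose and 7 fell, with PER1, a clock repressor that steroid hormones induce, up 3-fold from 12.5 ± 0.863 CPM. Of 42 histone methylation genes 13 rose and 5 fell (10 and 10 with upper-quartile scaling), with the demethylase KDM4B up 1.78-fold from 135 ± 5.62 CPM. Among 22 prostate long noncoding RNAs 9 rose and 4 fell (2 without DHT replicate 1), and DRAIC fell from 21.3, 28.9 and 31.2 CPM to 9.31, 12.1 and 14.4 CPM. CTBP1-AS, which lies antisense to CTBP1 and rose 2.79-fold, is uncertain because the strand setting of the counting is not given in the sources used here. Over all 675 genes annotated as long noncoding RNA 8.0% rose and 20.6% fell, beside 23.4% and 19.1% of 12856 protein-coding genes. Level was not held equal between these types, and over all genes of 1 to 5 CPM 7.65% rose and 23.1% fell.

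The response with paxillin siRNA was then set beside that with nonspecific siRNA, which comes from other libraries. Of the 3234 genes that rose, 2576 (79.7%) also rose with nonspecific siRNA, where 3481 rose (74.0% of them shared). Of the 2886 that fell, 2090 (72.4%) also fell there, 68.5% of its 3053. Opposite calls numbered 7. Over 7458 genes of at least 20 CPM the median absolute difference between the log2 fold changes was 0.09, beside a median SE of the difference of 0.1. The difference itself passed an edgeR quasi-likelihood test in 8 genes (0.0496%), 6 with a higher and 2 with a lower effect with paxillin siRNA, and 1435 genes had an unadjusted p under 0.05. All 8 remained with DESeq2, which called 52, and with the replicate block, which called 97. Limma-voom called 0, with 1471 genes at an unadjusted p under 0.05, and leaving out any of 8 single libraries, replicate 2 or 3 of any of the 4 groups, also left 0, with 1112 to 1522 genes at an unadjusted p under 0.05.

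CDC42EP3, an effector of the GTPase CDC42 that organises septins and actin (chromosome 2, 37641944 to 37672949), had the largest such excess. It rose from 17, 14 and 15.1 CPM to 55.1, 65.8 and 80.1 CPM with paxillin siRNA and from 14.2, 13.4 and 12.7 CPM to 28.8, 25.7 and 27.6 CPM with nonspecific siRNA. The vehicle values of the 2 siRNAs overlapped and the DHT values did not, and the difference of 1.09 ± 0.16 on the log2 scale had an adjusted p of 0.037. TMTC2, a mannosyltransferase gene of the endoplasmic reticulum, rose from 26.8 ± 2.95 to 60.4 ± 4.6 CPM, a log2 fold change of 1.17 beside 0.42 with nonspecific siRNA, a difference that did not pass with upper-quartile scaling. Its vehicle values were apart between the siRNAs and its DHT values overlapped. ZNF737, a zinc finger gene of a large cluster of paralogs, FAM129A, which is induced by stress, and CITED2, a regulator of the coactivators CBP and p300, had 1.01, 1.19 and 0.74 beside 0.30, 0.58 and 0.19. KDM5A, a histone demethylase, was at 60.8, 61.3 and 57.3 CPM and then 56, 55.2 and 56.7 CPM with paxillin siRNA, without passing the test (adjusted p = 0.23, and 0.025 with upper-quartile scaling). With nonspecific siRNA it fell from 86.3, 93 and 84.3 CPM to 59, 55.6 and 54.7 CPM, so the DHT values of the 2 siRNAs overlapped and the vehicle values were apart.

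PCAT1, a long noncoding RNA of prostate cancer, and PGC, pepsinogen C, had the smaller effects with paxillin siRNA. PCAT1 stood at 17.3, 18.3 and 21.1 CPM with vehicle and at 25, 17.6 and 15.4 CPM with DHT, with overlapping groups, and rose from 11.7, 9.19 and 7.71 CPM to 31.9, 21.8 and 23.6 CPM with nonspecific siRNA. PGC rose under both, from 4.14, 4.78 and 4.75 CPM to 70.3, 67 and 70.7 CPM with paxillin siRNA and from 2.93, 1.63 and 1.43 CPM to 75.8, 61.3 and 64.7 CPM with nonspecific siRNA. For both genes the DHT values overlapped between the siRNAs and the vehicle values did not. In the androgen-induced list no member passed this test of the difference: KLK3 differed by 0.16 ± 0.15 and FKBP5 by -0.27 ± 0.14. In that list 13 of 46 had an unadjusted p under 0.05 in the edgeR test, beside 1435 of 16115 over all genes. DESeq2 called 1. With the replicate block 1 passed, ELL2, a transcription elongation factor (0.55, adjusted p = 0.0267).

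**Figure D5:**
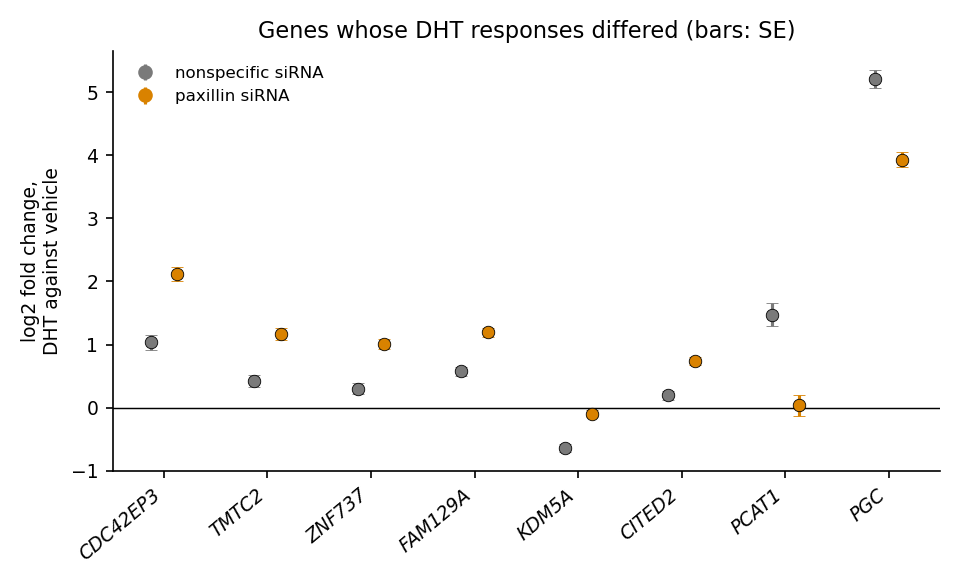
Log2 fold change of DHT against vehicle with nonspecific and with paxillin siRNA for the 8 genes whose difference passed the test, with bars of 1 SE. CDC42EP3 stands 1.09 higher and PCAT1 1.43 lower with paxillin siRNA.

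The DHT effects on the replication genes lay lower with paxillin siRNA without passing that test singly. Their median difference between the log2 fold changes was -0.23, 17 of 47 had an unadjusted p under 0.05 beside 1435 of 16115 over all genes, and 0 passed after adjustment over all genes. Other lists, besides the androgen-induced one given above, also had many members at an unadjusted p under 0.05 in that edgeR test. They numbered 10 of 31 p53 targets, 11 of 37 integrated stress genes and 15 of 53 ribosome biogenesis genes, with median differences of -0.1, -0.18 and -0.15. DESeq2 called 1 of the replication genes lower. With the replicate block 2 passed, MCM2 (-0.37, adjusted p = 0.0404) and TYMS (-0.39, adjusted p = 0.0305), the gene of thymidylate synthase. MCM2 went from 112, 105 and 123 CPM to 96.9, 100 and 102 CPM with nonspecific siRNA, and its difference was -0.37 ± 0.10. With nonspecific siRNA 12 of the 47 fell and 5 rose, with a median of -0.08, beside 32 and 2 here. The DHT levels of MCM2 overlapped between the siRNAs, and its vehicle levels were higher with paxillin siRNA, without overlap.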

How the data were processed

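Libraries were made with a stranded mRNA kit, per the labels' protocols. The starting point was the table of raw read counts per gene that the authors deposited for 12 libraries. Per the submitters' processing notes, reads were handled with Trimmomatic 0.36, STAR 2.5.2b and featureCounts of Subread 1.5.0p3 on GRCh38. Not given in the sources used here were the siRNA sequences, the annotation release and the strand setting of the counting. Groups came from the labels.

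The deposited counts were filtered with filterByExpr (minimum count 10, minimum total 15), scaled by TMM and fitted in 1 model of 4 group means with edgeR 4.0.16 (R 4.3.3). Quasi-likelihood tests gave p-values adjusted by Benjamini-Hochberg over all 16115 genes, and called means an adjusted p under 0.05. Contrasts were DHT against vehicle within each siRNA and the difference of those effects. The fit was tested on simulated data. Log2 fold changes carry SE, and CPM means carry SD with n = 3. Alternatives used other scalings, no filter, DESeq2 1.42.0, limma 3.58.1 with voom, the replicate number as a block, stricter thresholds and each library left out.

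Replicate numbers paired the samples: over 10701 genes, deviations from the group means correlated at 0.144 to 0.482 in 18 same-number pairs and at -0.426 to 0.213 in 36 different-number pairs. The main fit held no term for that pairing. With the replicate number as a block 7067 genes were called for DHT with paxillin siRNA, against 6120. Replicates differed by more than counting noise. The genes and lists described were chosen with earlier results of these data known. Named genes were the largest changes by fold and by CPM, up to 4 called members a list in each direction with the members a list is known by, the called differences between siRNAs, and a fixed panel. Genes named beside these were chosen after their values were seen. Counts of paralogs and antisense genes are uncertain. Promoter sequences are from RefSeq on GRCh38.p14, of which 10461 matched. Results for some genes are not reported here.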

Additional observations from a re-analysis of the deposited data

Results flagged for a closer look

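In 8 genes the DHT effect differed between paxillin and nonspecific siRNA by edgeR's test of the difference itself, on the log2 scale and with adjusted p-values of at most 0.05. The effect with paxillin siRNA was higher by 1.09 ± 0.16 (SE) in CDC42EP3, by 0.74 ± 0.13 in TMTC2, by 0.71 ± 0.12 in ZNF737 and by 0.61 ± 0.10 in FAM129A. It was higher by 0.55 ± 0.08 in KDM5A and by 0.55 ± 0.09 in CITED2. It differed by -1.43 ± 0.25 in PCAT1 and by -1.28 ± 0.21 in PGC. In TMTC2, KDM5A, PCAT1 and PGC the vehicle levels of the 2 siRNAs were apart and the DHT levels overlapped. In CDC42EP3 and ZNF737 the DHT levels were apart and the vehicle levels overlapped, and in FAM129A and CITED2 both were apart.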

How the results depend on the processing

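No called change of a named gene reversed its direction under any alternative. The balance of rises and falls did turn with upper-quartile scaling, which called 2262 genes higher and 3935 lower with paxillin siRNA, against 3234 and 2886. That of some gene lists turned with it, as given above. A test for changes over 1.2-fold called 2920 genes with paxillin siRNA, 1441 higher and 1479 lower, and 3210 with nonspecific siRNA, against 6120, 3234, 2886 and 6534. An adjusted p under 0.01 left 1878 lower genes. Counts of at least 2-fold changes stayed within 1.5 times. Leaving out 1 library at a time gave 5139 to 6363 called genes, 2657 to 3282 higher and 2340 to 3107 lower, and 5503 to 6714 with nonspecific siRNA.

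The 8 differences between the siRNAs became 142 without the filter on low counts, 52 with DESeq2, 97 with the replicate block and 108 with the replicate block within each siRNA. They became 0 with limma-voom, with an adjusted p under 0.01 and for changes over 1.2-fold. They ran from 0 to 26 with 1 library left out: 4 without nonspecific DHT replicate 1, 7 without nonspecific vehicle replicate 1, 11 without paxillin DHT replicate 1, 26 without paxillin vehicle replicate 1, and 0 without any other library. The cause was not tested.

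Of 459 named genes tested, 432 were called and 347 kept call and direction under every alternative, while 43 lost the call without 1 library. The replicate block brought 7 named genes past the threshold (PXN, MYC, HSPA5, TSC22D3, ATF4, SCD and VEGFA) and changed no other call of a named gene. With 3 libraries a group, genes under 1 CPM had a median SE of 0.443 on the log2 scale, against 0.068 from 100 CPM, which limits what could be detected among low genes.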
